A study of Mus musculus with 16 samples.

Results

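MHC class I antigen presentation was followed through 10 listed genes: B2m, H2-K1, H2-D1, Tap1, Tap2, Tapbp, Psmb8, Psmb9, Psmb10 and Nlrc5. They were chosen by name, and 8 of the 10 were measured by a probe set of their own, out of 19938 genes in the table. For H2-K1 and H2-D1 the array has only probe sets that its annotation assigns to both genes and to a further class I gene, so neither was measured singly. Where a gene has several probe sets the brightest was used, which concerns Nlrc5 alone among the members.

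Nearly every nucleated cell displays peptides from its own proteins on MHC class I molecules, which consist of a heavy chain (H2-K1 or H2-D1 in these mice) and the light chain β2-microglobulin (B2m). The peptides are cut by the proteasome, in which cytokines such as interferon-γ replace the constitutive catalytic subunits by the immunoproteasome subunits Psmb8, Psmb9 and Psmb10. The transporter Tap1-Tap2 carries the peptides into the endoplasmic reticulum, and tapasin (Tapbp) loads them. Nlrc5 is a transactivator that works at promoters of class I genes.

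RNA came from mouse embryonic fibroblasts (MEFs) on a mixed C57Bl/6 x 129Sv background, of SIMPL-/- mice (named IRAK1BP1-/- in the labels) or littermate controls (named WT there). SIMPL, the product of Irak1bp1, is a coactivator of the NF-κB subunit p65, and the study asked which TNFα-dependent genes need it. Cells were left untreated or received recombinant human TNFα at 10 ng/ml, for 45 min by the labels and for 1 h by the methods. Each of the 4 groups has 4 Affymetrix Mouse Gene 1.0 ST arrays, and the values are log2 intensities after robust multi-array averaging (RMA). The methods state 4 independent derivations of MEFs per strain, each from 1 embryo. Nothing ties an array to an embryo, culture or preparation day, so p-values measure the spread between these arrays, and differences between preparations and between genotypes cannot be told apart.

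Array medians lay between 6.67 and 6.76, and arrays of a group correlated across genes at 0.995 or more. Irak1bp1 stood at 8.09 ± 0.17 in untreated and 7.91 ± 0.18 in treated littermate MEFs, against 5.36 ± 0.19 and 5.37 ± 0.24 in SIMPL-/- MEFs (SD, n = 4 each). Of 17 measured fibroblast markers, none had a group mean under 6, and their mean value was 12.12 ± 0.04 in untreated littermate and 11.83 ± 0.03 in untreated SIMPL-/- MEFs (SD, n = 4). Of these, 11 were called lower and 3 higher in untreated SIMPL-/- MEFs, where 17.6% of all genes were called lower and 23.3% higher. Of 35 measured myeloid markers, 33 were lower in SIMPL-/- MEFs, in untreated as in treated cells, against 17.6% and 18.4% of all genes. Cd163 was higher in untreated cells, by 0.26 (adjusted p = 0.00948 from limma), and not called in treated cells. Clec7a was called in neither. Both had means under 6 in every group. The mean value of the 35 markers was 9.11 ± 0.16 in untreated and 9.27 ± 0.17 in treated littermate MEFs, against 7.20 ± 0.05 and 7.23 ± 0.03 (SD, n = 4 each). Their summed intensity ran from 29688 to 42401 on the littermate arrays and from 6673 to 7283 on the SIMPL-/- arrays. The macrophage markers Cd68 and Mrc1 differed by -2.96 and -3.42 (log2) in untreated cells, yet still read 8.38 ± 0.04 and 7.35 ± 0.16 (SD, n = 4) in untreated SIMPL-/- MEFs. Of the myeloid markers, 3 had a mean under 6 in the littermate groups and 4 in the SIMPL-/- groups. Of 18 dendritic and lymphoid markers, 3 were higher and none lower in untreated SIMPL-/- MEFs, and 16 had a mean under 6 in littermate MEFs. The 3, Xcr1, Itgax and Cd2, had means under 6 in every group. In this comparison 23.3% of all genes were higher and 17.6% lower. Endothelial markers counted 5 higher of 10 and epithelial markers 6 higher of 10 in the same comparison, with none lower. Macrophages carry class I molecules and immunoproteasomes in abundance, and the part of these cell markers in the class I values below was not tested. In bulk RNA, fewer cells of a type and less RNA per cell cannot be told apart.

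The genes lie on chromosomes 2 (B2m), 8 (Psmb10 and Nlrc5) and 17 (the others). On chromosome 17, RefSeq lists H2-DMb1, Psmb9, Tap1, Psmb8, Tap2 and H2-Ob in this order, so 4 of the measured members are direct neighbours. Psmb9 and Tap1 start back to back with 225 bases between their starts. RefSeq sequence before the gene start was at hand for 8 of the 10 genes (all except Tap2 and Nlrc5). Shown are the light chain and heavy chain promoters, which carry the NF-κB-like and interferon-response letters, and the shared stretch between Psmb9 and Tap1, both genes of which were called lower here. All are from build GRCm38.p6 and read 5′ to 3′. Capitals mark matches on either strand to GGNNTTTCC or GGNNTTCCC (NF-κB), GAAANNGAA or GAANNGAAA (interferon response), TGACGC (X2 box) and ATTGG (Y box), where N is any base. The B2m window is chr2:122147537-122147686 on the plus strand, that of H2-K1 chr17:34000348-34000483 on the minus strand and that of H2-D1 chr17:35262899-35263034 on the plus strand. The stretch between Psmb9 and Tap1, chr17:34187331-34187555, is given on the plus strand, which is that of Tap1.
B2m: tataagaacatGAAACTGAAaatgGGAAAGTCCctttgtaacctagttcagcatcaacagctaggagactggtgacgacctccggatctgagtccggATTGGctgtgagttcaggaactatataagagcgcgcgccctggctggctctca
H2-K1: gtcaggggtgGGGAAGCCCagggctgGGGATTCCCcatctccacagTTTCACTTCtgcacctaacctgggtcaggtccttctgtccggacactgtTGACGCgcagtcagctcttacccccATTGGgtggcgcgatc
H2-D1: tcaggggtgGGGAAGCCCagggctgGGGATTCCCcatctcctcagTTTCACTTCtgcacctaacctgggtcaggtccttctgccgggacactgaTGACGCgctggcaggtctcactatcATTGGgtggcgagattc
Psmb9-Tap1: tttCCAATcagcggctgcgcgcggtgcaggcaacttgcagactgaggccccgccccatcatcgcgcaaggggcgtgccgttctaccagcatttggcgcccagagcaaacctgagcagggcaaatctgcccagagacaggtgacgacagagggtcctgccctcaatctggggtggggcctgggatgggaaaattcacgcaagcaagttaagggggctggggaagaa

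In the 250 bases before the start, GGNNTTTCC was found for B2m and in 4.93% of all 32851 RefSeq promoters, and GGNNTTCCC for H2-K1 and H2-D1 and in 4.99%. GAAANNGAA matched B2m (7.13% of all), and GAANNGAAA matched H2-K1 and H2-D1 (6.31%). TGACGC was found for H2-K1 and H2-D1 (6.12%). The short ATTGG was found for 6 of the 8 members with sequence, and in 33.8% of all promoters. The matches of Psmb9 and Tap1 are the same bases of the stretch between them, counted for both genes. A GAS-like TTCNNNGAA was found for Psmb8 alone of the 8 (7.02% of all). These matches describe the letters only.

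In untreated cells the class I presentation genes stood lower in SIMPL-/- MEFs. Of the 8 measured members, 6 were called lower and none higher (limma, adjusted p under 0.05 over all genes), where 17.6% of all genes were called lower and 23.3% higher. The 6 were B2m, Tapbp, Tap1, Tap2, Psmb8 and Psmb9, with log2 differences from -0.33 to -0.56. The median over the 8 members was -0.39, and over all genes 0.07. On 7 of the 8, Psmb10 included, the SIMPL-/- arrays were all lower than the littermate arrays, as they were for 17.5% of all genes. After TNFα, 7 of the 8 were called lower and none higher, where 18.4% of all genes were called lower and 17.8% higher. For 6 of the 8 the arrays of the genotypes did not overlap, against 17.2% of all genes with all SIMPL-/- arrays lower. The median difference was then -0.51, and over all genes 0.03. The untreated and the treated comparison share no array, but with 4 derivations and 8 arrays per strain their cells may come from the same embryos.

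**Figure D1:**
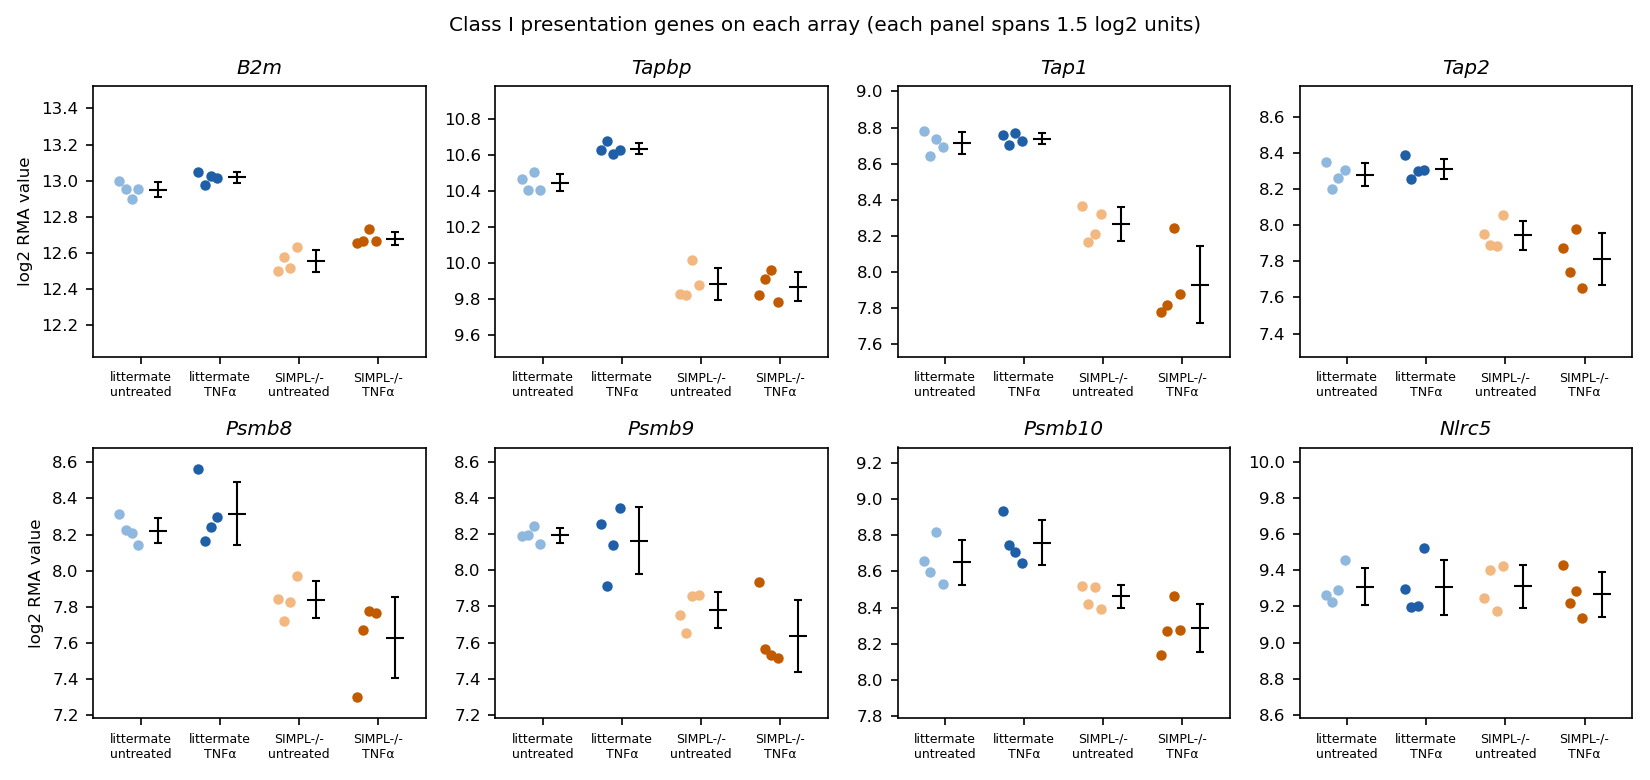
log2 RMA value (vertical axis) of the 8 measured members on each of the 16 arrays, by group on the horizontal axis, with the mean and SD (n = 4) as bars beside the points. The SIMPL-/- arrays lie below the littermate arrays for 6 genes both untreated and treated, and Psmb9 overlaps on 1 treated array per genotype. Nlrc5, shown by its brightest probe set alone, stays level.

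B2m, the light chain shared by all class I molecules, differed little between arrays of a group. B2m read 12.997, 12.95, 12.90 and 12.95 on the untreated littermate arrays, and 13.05, 12.98, 13.03 and 13.01 on those treated with TNFα. B2m values in SIMPL-/- MEFs were 12.50, 12.58, 12.51 and 12.63 untreated, and 12.65, 12.67, 12.73 and 12.67 after TNFα. All 8 SIMPL-/- arrays were lower than all 8 littermate arrays. The difference was -0.39 (SE 0.05, adjusted p = 2.79e-06 from limma) in untreated and -0.34 (adjusted p = 1.5e-05) in treated cells, or 1.31-fold and 1.26-fold lower. TNFα moved B2m by 0.07 in littermate MEFs (adjusted p = 0.541) and by 0.12 in SIMPL-/- MEFs (adjusted p = 0.212), neither of which passed the test.

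Tapbp encodes tapasin, which holds empty class I molecules at the peptide transporter. Tapbp read 10.47, 10.41, 10.50 and 10.40 on the untreated littermate arrays, and 10.63, 10.68, 10.60 and 10.63 on those treated with TNFα. Tapbp values in SIMPL-/- MEFs were 9.83, 9.82, 10.01 and 9.88 untreated, and 9.82, 9.91, 9.96 and 9.78 after TNFα. The littermate arrays were all above 10.4, the SIMPL-/- arrays all near or below 10. The genotype difference was -0.56 (SE 0.06, adjusted p = 2.33e-07) without TNFα and -0.76 (adjusted p = 2.81e-09) with it. All 4 treated littermate arrays lay above the untreated ones, by 0.19 in the mean, with an adjusted p of 0.0667 that missed the threshold. In SIMPL-/- MEFs the change with TNFα was -0.02.

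Tap1 is one chain of the peptide transporter, and its group means had the widest range of the 8 members, 0.81. Tap1 read 8.78, 8.64, 8.74 and 8.69 on the untreated littermate arrays, and 8.76, 8.71, 8.77 and 8.72 on those treated with TNFα. Tap1 values in SIMPL-/- MEFs were 8.37, 8.17, 8.21 and 8.32 untreated, and 7.78, 7.82, 8.24 and 7.88 after TNFα. The littermate arrays formed one narrow band, while 3 of the treated SIMPL-/- arrays lay below all untreated ones and the other, at 8.24, lay among them. The genotype difference was -0.45 (SE 0.08, adjusted p = 0.00022) in untreated and -0.81 (SE 0.08, adjusted p = 1.69e-07) in treated cells, a 1.75-fold lower level after TNFα. Tap1 was the single member whose TNFα response was called, a fall in SIMPL-/- MEFs by 0.34 (adjusted p = 0.0272). At that threshold 1.39% of all genes were called lower with TNFα in SIMPL-/- MEFs, and the call was lost without array 9, 12, 13, 14 or 16 in turn (adjusted p from 0.0721 to 0.107), and with each array centred on its median (adjusted p = 0.0573). In littermate MEFs the response was 0.03 (adjusted p = 0.924).

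Tap2, the partner chain, followed the same order of groups. Tap2 read 8.35, 8.20, 8.26 and 8.30 on the untreated littermate arrays, and 8.39, 8.26, 8.30 and 8.30 on those treated with TNFα. Tap2 values in SIMPL-/- MEFs were 7.95, 7.89, 7.88 and 8.06 untreated, and 7.87, 7.74, 7.98 and 7.65 after TNFα. The littermate groups overlapped each other and so did the SIMPL-/- groups, with no overlap between the genotypes. The genotype difference was -0.33 (SE 0.07, adjusted p = 0.000641) untreated and -0.50 (adjusted p = 7.29e-06) treated. The response to TNFα was 0.03 in littermate and -0.13 in SIMPL-/- MEFs, and neither was called.

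Psmb8 encodes the immunoproteasome subunit with chymotrypsin-like activity. Psmb8 read 8.31, 8.22, 8.21 and 8.14 on the untreated littermate arrays, and 8.56, 8.16, 8.24 and 8.30 on those treated with TNFα. Psmb8 values in SIMPL-/- MEFs were 7.85, 7.72, 7.83 and 7.97 untreated, and 7.30, 7.67, 7.78 and 7.77 after TNFα. The treated groups spread more than the untreated ones, and the genotypes still did not overlap. The genotype difference was -0.38 (SE 0.10, adjusted p = 0.00464) untreated and -0.69 (adjusted p = 1.37e-05) treated. TNFα changed the mean by 0.10 in littermate and by -0.21 in SIMPL-/- MEFs, with adjusted p of 0.699 and 0.304.

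Psmb9 is the immunoproteasome subunit whose gene starts beside Tap1 in the stretch printed above. Psmb9 read 8.19, 8.20, 8.25 and 8.14 on the untreated littermate arrays, and 8.25, 7.92, 8.14 and 8.35 on those treated with TNFα. Psmb9 values in SIMPL-/- MEFs were 7.75, 7.65, 7.86 and 7.87 untreated, and 7.94, 7.56, 7.53 and 7.51 after TNFα. Untreated, the genotypes did not overlap. After TNFα the highest SIMPL-/- array (7.94) lay just above the lowest littermate array (7.92). The difference was -0.41 (SE 0.09, adjusted p = 0.00185) untreated and -0.53 (SE 0.09, adjusted p = 0.000174) treated. Neither response to TNFα was called.

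Psmb10, the immunoproteasome subunit with trypsin-like activity, had the smallest genotype difference of the 3 in untreated cells. Psmb10 read 8.66, 8.60, 8.82 and 8.53 on the untreated littermate arrays, and 8.93, 8.74, 8.71 and 8.64 on those treated with TNFα. Psmb10 values in SIMPL-/- MEFs were 8.52, 8.42, 8.52 and 8.39 untreated, and 8.14, 8.27, 8.46 and 8.27 after TNFα. The untreated SIMPL-/- arrays all lay below the untreated littermate arrays, the nearest by a narrow margin. The untreated difference of -0.19 (SE 0.08) had an adjusted p of 0.0611 and was not called. It was called without array 4, 5 or 15, with adjusted p from 0.038 to 0.0462. The treated difference was -0.47 (SE 0.08, adjusted p = 7.85e-05).

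**Figure D2:**
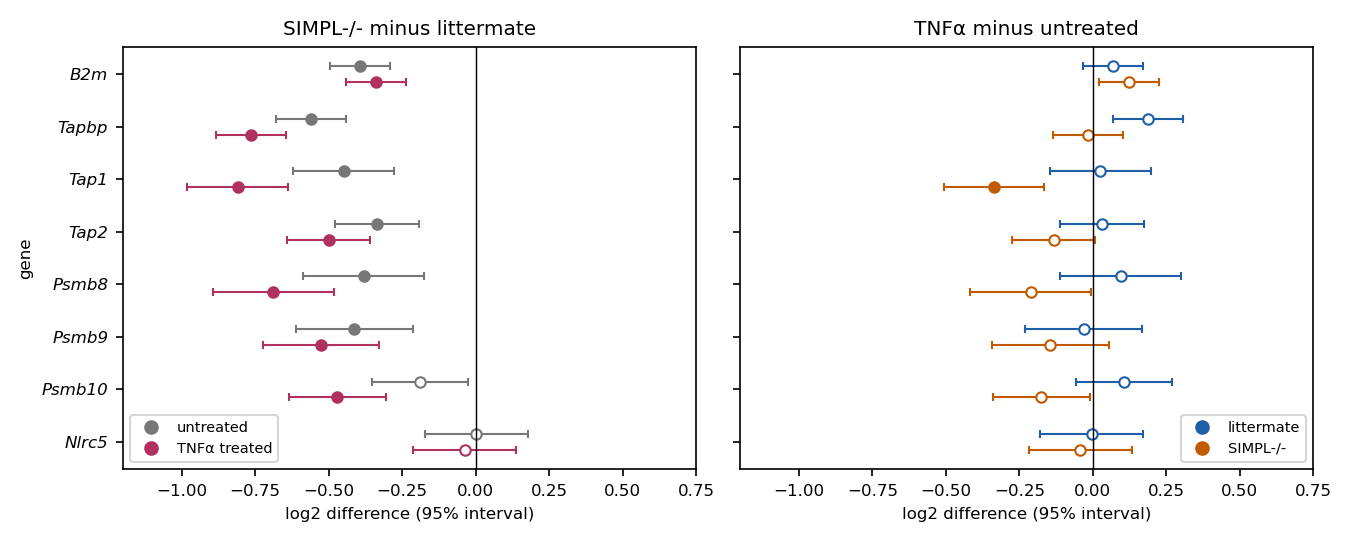
log2 differences of the 8 members with 95% intervals, left between the genotypes (SIMPL-/- minus littermate) and right between TNFα treated and untreated cells. Filled points passed an adjusted p of 0.05: 6 untreated and 7 treated genotype differences lie below 0, while Tap1 in SIMPL-/- MEFs, at -0.34, is the single filled response to TNFα.

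With TNFα, none of the 8 members was called in littermate MEFs. As 2.7% of all genes were called higher and 2.45% lower, that count is near the share of all genes. The median response of the members was 0.05. At an unadjusted p under 0.05 there was 1 higher, Tapbp, and none lower, where 8.3% of all genes were higher and 8.32% lower. In SIMPL-/- MEFs 1 of 8 was called lower and none higher, where 1.39% and 1.73% of all genes were, with a median of -0.14. The estimate was below 0 for 7 of the 8, all except B2m, and for 59.3% of all genes. At an unadjusted p under 0.05 there were 3 lower, Tap1, Psmb8 and Psmb10, and 1 higher, B2m, where 9.4% of all genes were lower and 6.15% higher.

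The difference between the responses of the genotypes, tested as an interaction, was called for none of the 8, where 0.537% of all genes were called in either direction. Its median was -0.18, and over all genes -0.03. The estimate was negative for 7 of 8 and for 58.7% of all genes. Of the 7, 4 (Tap1, Tapbp, Psmb8 and Psmb10) had an unadjusted p under 0.05, as 8.26% of all genes did in this direction. For Tap1 it was -0.36 (SE 0.12, 95% interval -0.60 to -0.12, adjusted p = 0.193). Without array 15, whose Tap1 value is the highest of its group, it was -0.47 (adjusted p = 0.00845) and was called. That was 1 of 16 omissions of an array, over which the estimate ran to -0.31 and the adjusted p to 0.344. In 10 other settings of the processing or test, the Tap1 interaction was called 0 times. This contrast uses the same arrays as the comparisons above.

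To set the immunoproteasome subunits against the constitutive subunits they replace, the difference of both log2 values was taken within each array. Its own level depends on the probes and is not interpreted, and its shift between genotypes was tested by an exact permutation test (two-sided, 4 against 4, smallest possible p = 0.0286). Psmb8 minus Psmb5 shifted by -0.42 in untreated and -0.59 in treated cells. In untreated cells it ran from -2.42 to -2.26 in SIMPL-/- and from -2.04 to -1.75 in littermate MEFs. Psmb10 minus Psmb7 shifted by -0.32 untreated and -0.57 treated. Psmb9 minus Psmb6 shifted by -0.46 in untreated cells, and by -0.35 in treated cells, where the groups overlapped (exact permutation p = 0.0857). The other 5 of the 6 shifts had no overlap and the smallest possible exact permutation p, 0.0286, adjusted over the 6 tests to 0.0343. In these 5 comparisons the immunoproteasome subunit alone already had no overlap between the genotypes, on the same arrays. As the constitutive subunits were also taken with their values known, the 5 shifts are not separate support for a genotype difference. The constitutive subunits Psmb5, Psmb6 and Psmb7 themselves differed by 0.04, 0.05 and 0.13 between untreated genotypes, and none was called. After TNFα, Psmb6 was called lower, by -0.18 (adjusted p = 0.0478).

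**Figure D3:**
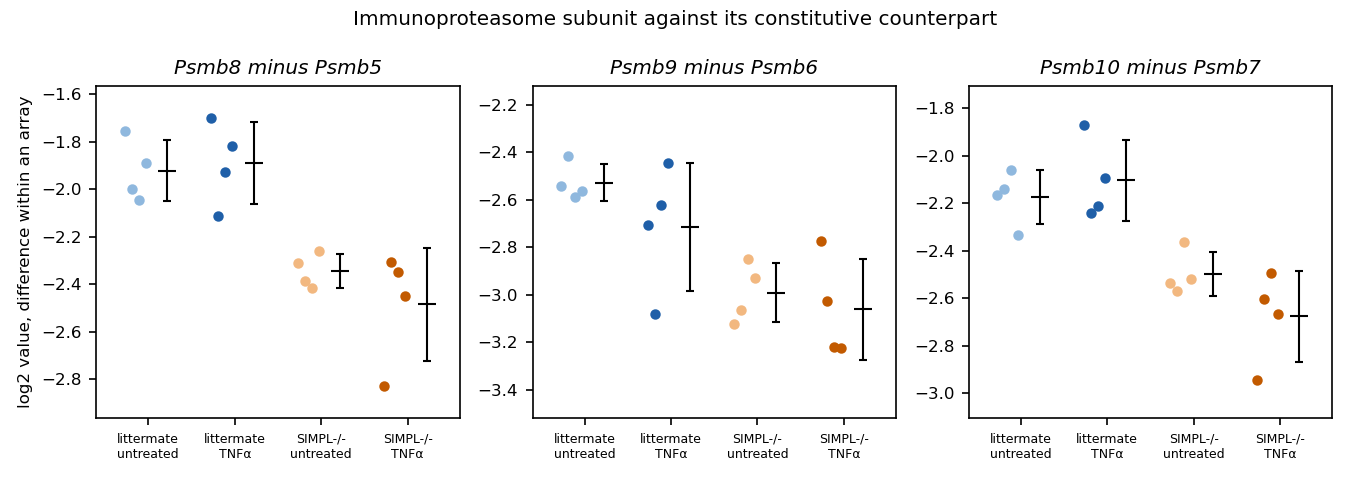
log2 value of each immunoproteasome subunit minus that of its constitutive counterpart within an array, by group, with mean and SD (n = 4). The SIMPL-/- arrays are lower in all panels, with overlap in treated cells for Psmb9 minus Psmb6 only.

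Nlrc5 is read by 19 probe sets, and its result depends on which is taken. Nlrc5 read 9.26, 9.23, 9.29 and 9.46 on the untreated littermate arrays, and 9.30, 9.20, 9.20 and 9.52 on those treated with TNFα. Nlrc5 values in SIMPL-/- MEFs were 9.24, 9.40, 9.18 and 9.42 untreated, and 9.43, 9.22, 9.29 and 9.14 after TNFα. By this brightest probe set all 4 groups overlapped, and the genotype difference was 0.00 (95% interval -0.17 to 0.18) untreated and -0.04 treated. The brightest probe set had group means from 9.27 to 9.31, and the others from 4.70 to 7.56. Among all 19, 9 were called lower and none higher in untreated SIMPL-/- MEFs, where 17.6% of all genes were lower and 23.3% higher. The 19 differences had a median of -0.13 and a range from -0.87 to 0.13. After TNFα 12 were lower and none higher, where 18.4% of all genes were lower and 17.8% higher. The median was then -0.29, and the 9 were lower in both. The largest difference of the 19 in untreated cells was that of probe set 10574149. It read 7.74, 7.61, 7.48 and 7.40 on the untreated littermate arrays and 6.70, 6.69, 6.85 and 6.53 on the untreated SIMPL-/- arrays. That is a difference of -0.87 (SE 0.10, adjusted p = 1.8e-06) with no overlap. None of the 19 was called for a TNFα response in either genotype. These probe sets sample 1 gene on the same arrays and are not replicates.

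**Figure D4:**
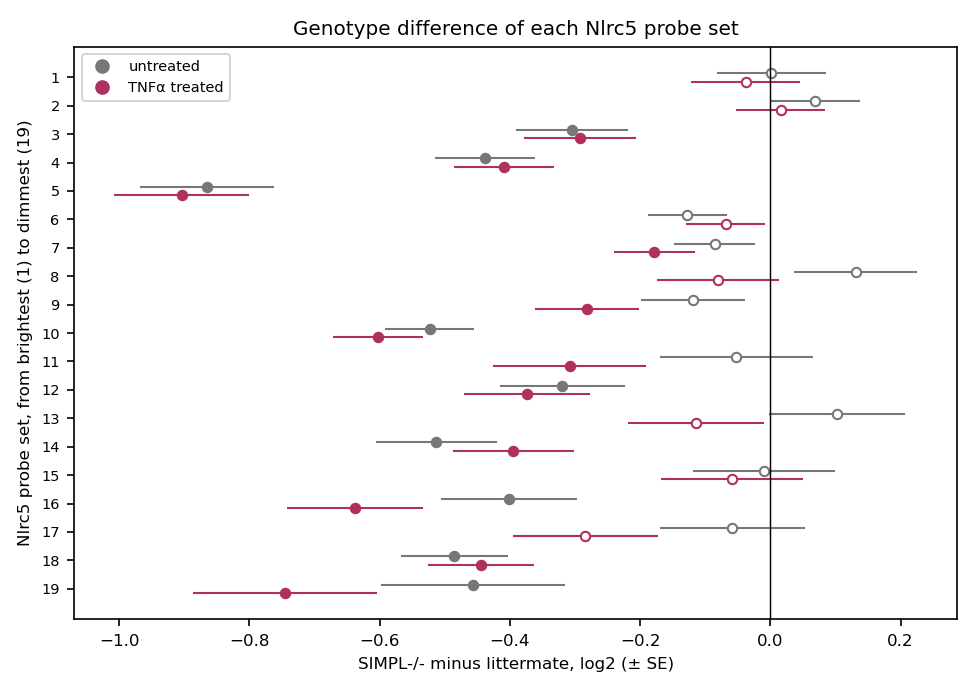
Genotype difference (SIMPL-/- minus littermate, log2, ± SE) of the 19 Nlrc5 probe sets, ordered on the vertical axis from the brightest to the dimmest, in untreated and TNFα treated MEFs. Filled points were called: 9 untreated and 12 treated, all below 0, and neither of the 2 brightest. Of all genes, 17.6% were called lower untreated and 18.4% treated.

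The remaining genes of the pathway did not all move with these. Of 19 measured folding, trimming and loading partners, 6 were higher and 1 lower in untreated SIMPL-/- MEFs, and 8 higher and 2 lower after TNFα (medians 0.09 and 0.06). Of all genes, 23.3% were higher and 17.6% lower untreated, and 17.8% and 18.4% after TNFα. Hspa5, an endoplasmic reticulum chaperone, was higher by 0.40 (adjusted p = 1.43e-06) in untreated cells, as was Sec61a1, the translocon channel, by 0.40 (adjusted p = 7.98e-06). The leucine aminopeptidase Lap3 was higher by 0.30 (adjusted p = 0.000336). Calr, the chaperone calreticulin, was higher by 0.22. The trimming peptidase Erap1 was lower by -0.22 (adjusted p = 0.0352) and by -0.30 after TNFα.

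**Figure D5:**
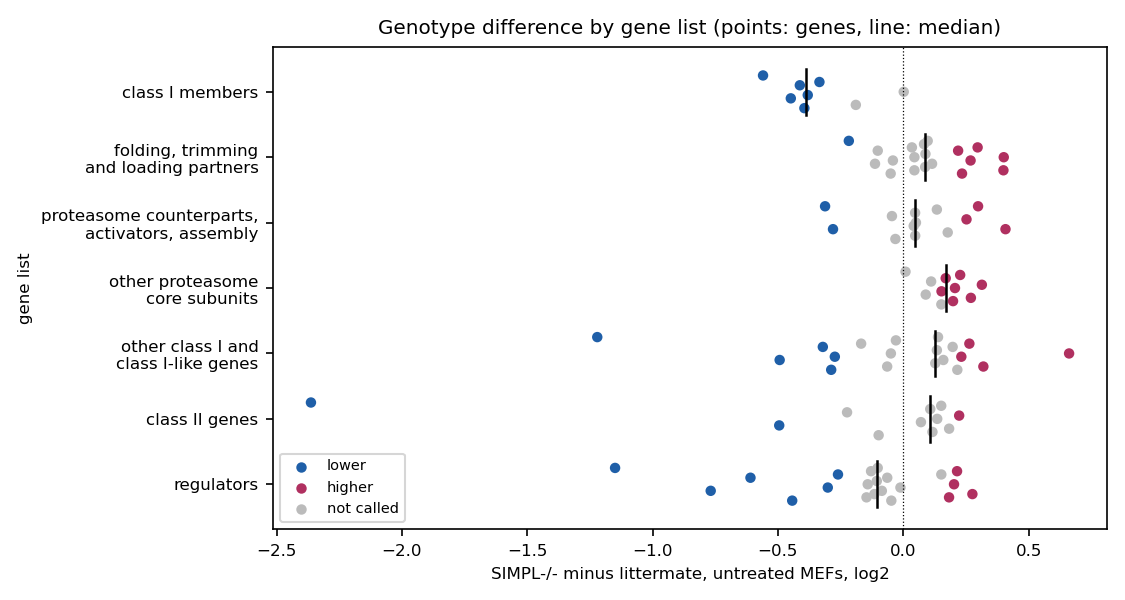
Genotype difference in untreated MEFs (SIMPL-/- minus littermate, log2, horizontal axis) of every measured gene of the class I members and of 6 related lists, coloured by call, with the median of each list as a line. The members' median lies at -0.39, and the other medians run from -0.11 to 0.17.

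Of 13 proteasome counterparts, activators and assembly factors, 3 were higher and 2 lower in untreated SIMPL-/- MEFs, and 4 and 3 after TNFα. The untreated counts are near the shares of all genes, 23.3% higher and 17.6% lower. After TNFα these shares were 17.8% and 18.4%. The 2 lower ones untreated were Psme1 and Psme2, the subunits of the interferon-inducible PA28 activator. They differed by -0.31 (SE 0.06, adjusted p = 0.000775) and -0.28 (SE 0.08, adjusted p = 0.00815), and after TNFα by -0.49 and -0.47. Pomp, which assembles proteasomes, was higher by 0.41 (adjusted p = 0.000319). Of 11 other core subunits, 7 were higher and none lower untreated, and 4 and none after TNFα, beside the same shares of all genes. Psmb3 and Psma5, both of the core, were higher by 0.31 and 0.27 in untreated cells.

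Among 19 other class I and class I-like genes, 4 were higher and 5 lower untreated, where 23.3% and 17.6% of all genes were. After TNFα, 1 was higher and 5 lower, against 17.8% and 18.4% of all genes. H2-Q4, H2-K2 and H2-Q5 are near copies of each other and of H2-K1 and H2-D1, and signal of one may come from another, so their names are uncertain. H2-Q4 stood at 8.82 ± 0.11 in littermate and 7.60 ± 0.14 in SIMPL-/- untreated MEFs (SD, n = 4), a difference of -1.22 (adjusted p = 4.36e-09). H2-K2 was dim, at 5.29 ± 0.16 in untreated littermate MEFs, and rose with TNFα to 6.53 ± 0.21 there, by 1.23, but by 0.41 in SIMPL-/- MEFs (SD, n = 4). The difference between these responses was -0.83 (SE 0.15, adjusted p = 0.0118), with means under 6 in the other 3 groups. Procr, a class I-like receptor for protein C, was higher in SIMPL-/- MEFs by 0.66.

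Of 11 class II presentation genes, 1 was higher and 2 lower untreated, where 23.3% and 17.6% of all genes were. After TNFα, none was higher and 3 were lower, against 17.8% and 18.4% of all genes. The largest difference was that of Ctss, the protease cathepsin S, at 10.64 ± 0.13 in littermate and 8.27 ± 0.08 in SIMPL-/- untreated MEFs (SD, n = 4). That is -2.36 on the log2 scale. Ifi30, a thiol reductase of antigen-presenting cells, differed by -0.49. Cd74, the invariant chain, was dim, with means under 6 in every group, and its untreated difference of -0.22 (adjusted p = 0.0864) was not called. With TNFα, Cd74 went from 5.37 ± 0.23 to 5.73 ± 0.08 in littermate and from 5.14 ± 0.19 to 5.41 ± 0.10 in SIMPL-/- MEFs (SD, n = 4). Of the 11 genes, 1 was called higher with TNFα in littermate MEFs and none in SIMPL-/- MEFs, against 2.7% and 1.73% of all genes. Ctss is strong in macrophages, whose markers are given above, and the part of macrophages in the Ctss difference was not tested.

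Of 21 measured regulators of class I transcription, 4 were higher and 6 lower in untreated SIMPL-/- MEFs, and 1 and 10 after TNFα. The shares of all genes were 23.3% higher and 17.6% lower untreated, and 17.8% and 18.4% after TNFα. Stat2 and Irf9, transcription factors of the interferon response, were lower by -1.15 (SE 0.07, adjusted p = 3.71e-10) and -0.77 (SE 0.07, adjusted p = 1.27e-07) in untreated cells. Irf8, a factor of myeloid cells, was lower by -0.61. With TNFα, 7 of the 21 regulators were called higher and 1 lower in littermate MEFs, against 2.7% and 2.45% of all genes. In SIMPL-/- MEFs 5 were higher and 2 lower, against 1.73% and 1.39%. Irf1, which binds interferon response elements of class I promoters, went from 8.51 ± 0.11 to 11.79 ± 0.05 in littermate MEFs and from 8.43 ± 0.12 to 10.60 ± 0.10 in SIMPL-/- MEFs (SD, n = 4). The difference between these responses was -1.10 (SE 0.10, adjusted p = 1.01e-05). A dimmer second Irf1 probe set rose by 0.36 and 0.31, and the difference there was -0.06 (adjusted p = 0.868).

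The genes most like Tap1 across the 16 arrays were named by the smallest root mean square difference of gene-centred log2 values among 19937 genes. They were Stxbp2, Pnrc2, Emilin1, Lrrc17, Hsd17b11, Pdgfra, Casp12 and Calcoco1, with differences from 0.0889 to 0.0932. Pdgfra, a receptor for platelet-derived growth factor on fibroblasts, read 11.53 ± 0.05 and 11.43 ± 0.07 in littermate MEFs and 11.10 ± 0.03 and 10.77 ± 0.17 in SIMPL-/- MEFs (untreated, then treated, SD, n = 4). Among the members, Psmb8 ranked 73 and Tap2 145, followed by Tapbp at 249, Psmb10 at 538, Psmb9 at 932 and B2m at 1327. The brightest Nlrc5 probe set ranked 6502.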

How the data were processed

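The deposited table holds log2 values that the authors made with RMA in Partek per the submitters' processing notes, without versions, whereas the study's methods name Affymetrix Microarray Suite. RMA equalises the arrays' probe distributions, so a shift of all genes would not show. Of 28853 probe sets, 21789 have 1 gene, 1621 several (left out) and 5443 are not listed, and 19856 of the 19938 genes are in the RefSeq table. The brightest probe set stood for a gene, with no filter on dim genes. One limma 3.58.1 model (R 4.3.3) with 4 group means (12 residual, 6.19 prior degrees of freedom) gave 5 two-sided contrasts, adjusted by Benjamini-Hochberg over all genes and called under 0.05. The 10 members, the 13 gene lists and the motifs were chosen with earlier results of these data known. Named are all members, Irak1bp1, up to 4 genes per list with the largest called difference (some not shown) and the 8 genes most like Tap1. Calr, Erap1 and the constitutive subunits were named after their values were seen. In simulated data, 50 genes each were changed 1.2-fold, 1.3-fold, 1.5-fold and 2-fold. At 1.3-fold, 66% were recovered in the untreated genotype contrast and 28% in the difference between responses. False calls among all unchanged genes were 5 and 6. The untreated genotype contrast of the data had far more called genes than were changed in the simulation. The 66% therefore does not give the recovery in the data. Alternatives were array centring, quantile normalization, probe set and dim-gene choices, variance and array weighting, a fit of each pair of groups, the t-test of the methods, other thresholds and leaving out each array. The number of arrays limits the precision.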

Additional observations from a re-analysis of the deposited data

Results flagged for a closer look

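Of 36 sets of 4 arrays checked (9 genes in 4 groups), 2 held an array far from the others by Dixon's ratio at its 95% critical value, and chance gives about 1 in 20. Psmb9 read 7.94 on array 13 of the treated SIMPL-/- group, and the nearest of the other 3 read 7.56 (ratio 0.881). Irak1bp1 read 7.65 on array 5 of the treated littermate group, with the nearest at 7.98 (ratio 0.881).

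Among the genes named, 2 had TNFα responses that differed between the genotypes by the interaction test in limma. The SIMPL-/- response minus the littermate response was -1.10 for Irf1 (adjusted p = 1.01e-05) and -0.83 for H2-K2 (adjusted p = 0.0118). H2-K2 was dim, with a mean under 6 in every group except treated littermate MEFs, and its name is uncertain among near copies, so the size of its difference is too. The second Irf1 probe set gave -0.06.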

How the results depend on the processing

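Over single members, 1162 comparisons with an alternative were made: 1093 kept the call or its absence, 27 were newly called, 32 lost the call and 10 changed sign with a call. All 10 concern Nlrc5 in untreated cells (0.00 by the brightest probe set): -0.23 by the mean of its probe sets, and by single probe sets -0.30, -0.44, -0.87, -0.52, -0.32, -0.51, -0.40, -0.48 and -0.46. Among the 1093, 49 changed sign with no call on either side, 43 of them Nlrc5. The cause was not tested.

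The count of lower members was 6 untreated. The treated count of 7 became 2 (Tap1, Tapbp) by the methods' t-test at a fold over 1.5 and p under 0.001, and 3 (with Psmb8) by limma at that threshold. The untreated count was 0 by both, which ask for a fold over 1.5. The study gives that threshold for genes induced by TNFα in littermate MEFs. By the mean of its probe sets, Nlrc5 was also called lower in limma, untreated (-0.23, adjusted p = 0.00153) and treated (-0.33, adjusted p = 5.34e-05). The 1 lower response in SIMPL-/- MEFs (Tap1) became 0 with arrays centred, with the compared arrays alone, with the methods' t-test either way and at both stricter thresholds. The count of higher responses went from 0 to 1 in littermate MEFs without dim genes, with trend and robust variances and by the methods' t-test with Benjamini-Hochberg (Tapbp, adjusted p from 0.0177 to 0.123 over its alternatives), and in SIMPL-/- MEFs with trend and robust variances (B2m). Psmb10 untreated was called in 5 of 11 settings.

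Leaving out each array gave 6 to 7 lower untreated, 7 to 7 treated, 0 to 1 lower and 0 to 0 higher responses in SIMPL-/- MEFs, 0 to 1 higher responses in littermate MEFs (Tapbp without array 11), and 0 to 1 lower differences between responses (Tap1 without array 15). No paired analysis was possible because the groups share no replicate numbers and nothing ties arrays to embryos. Rescaling moved the median of all genes by less than 0.1.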

Other observations

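The 2 probe sets that the annotation assigns jointly to H2-K1, H2-D1 and a further class I gene cannot be given to any of them. Probe set 10444780 had log2 values of 11.11 ± 0.04 in untreated and 11.22 ± 0.07 in treated littermate MEFs, against 10.52 ± 0.07 and 10.50 ± 0.12 in SIMPL-/- MEFs (SD, n = 4). Probe set 10450075 stood at 11.20 ± 0.08 and 11.41 ± 0.08, against 10.52 ± 0.08 and 10.59 ± 0.13 (SD, n = 4). For both, the SIMPL-/- arrays were all lower than the littermate arrays, as they were for 17.5% of all genes untreated and 17.2% treated. These 2 probe sets were not part of the fit and were not tested.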
